A study of Mus musculus with 6 samples.

Results

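Axon guidance genes of the semaphorin, ephrin, Slit and netrin systems were examined in cultures labelled as mouse skin endothelial cells (ECs) and kept in normal or high glucose. These families were chosen with earlier results of these data known. Members were matched by symbol: semaphorins of classes 3 to 7, plexins, Eph receptors, ephrins, Slits, Robos, numbered netrins and Unc5 receptors. This gave 66 of the 55487 gene identifiers in the count table, namely 35 ligands and 31 receptors. Of these, 61 passed the filter on low counts that left 19015 genes for testing. The study asked what excess glucose does to ECs. All 6 libraries came from C57BL/6 mice carrying no labelled transgene or deletion, from cells of the skin of 4 to 6 animals aged 2 to 3 months, taken with magnetic beads against CD31 and expanded in culture. In 3 libraries (normal glucose) the medium held 5 mmol/L glucose, and in the other 3 (high glucose) it held 20 mmol/L, in each case for 48 hours. PolyA RNA was sequenced. The study's legend counts these libraries per group of mice, but the labels do not tie a numbered sample to separate animals or isolations, so p-values measure the spread between these samples, which may in part be technical.

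These families are secreted or membrane-bound cues and their receptors, first described in growing axons and later in vessels. Semaphorins signal through plexins, with neuropilins as co-receptors for most of the secreted class, ephrins signal through Eph receptor kinases in both directions between touching cells, Slits bind Robos, and netrins bind Dcc, neogenin and Unc5 receptors. In vessels, ephrin-B2 and EphB4 mark arterial and venous ECs, semaphorins acting on plexin D1 guide sprouts, and Unc5b and Robo4 are receptors best known from ECs.

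The deposited counts summed to between 120192466 and 146881356 per library. The guidance genes took 0.315% of them in normal glucose replicate 1 and between 0.374% and 0.391% in the other libraries. Of the 61 tested members, 42 had their lowest normal glucose value in replicate 1. This was not counted over all genes. Over the whole table, normal glucose replicate 1 differed more from replicates 2 and 3 (chi-square per degree of freedom 59.95 and 40.23) than these did from each other (21.31). The EC label was checked against markers. The endothelial list of 15 genes summed to between 220.3 and 248 CPM (counts scaled to a common library size after TMM normalization) in normal glucose and 200.5 and 206 CPM in high glucose. Most of this sum was Eng (155 CPM in normal and 140.4 CPM in high glucose) and Flt1 (55.3 and 38.4 CPM), with 3 of 11 tested genes lower and 3 higher, whereas Sox17 had no count in any library, Tie1 and Cldn5 had at most 4 counts and Pecam1, the antigen used for isolation, had 9 to 19 counts. Other genes of the list were detected at low levels: Egfl7 had 10.3 to 11.7 CPM in normal glucose, Kdr 4.60 to 5.47 CPM, Plvap 4.13 to 4.82 CPM, Cdh5 1.71 to 1.84 CPM and Tek 1.18 to 1.44 CPM. Of these Cdh5 (-1.03, adjusted P = 1.4e-04) and Egfl7 (-0.23, adjusted P = 0.0346) were lower in high glucose, and Plvap (0.44, adjusted P = 0.00502) and Tek (0.66, adjusted P = 0.00219) higher. Genes of the fibroblast list, 12 in all, summed to between 40454 and 43795 CPM in normal glucose and 73575 and 78379 CPM in high glucose. Of them 11 were higher in high glucose and 1, Thy1, was lower (log2 fold change -0.40). Collagen genes weighed most in that sum, with Col3a1 going from a mean of 12421 to 32515 CPM and Col1a1 from 7771 to 13140 CPM. Lum and Loxl1 rose by 0.32 and 0.26 on the log2 scale. Several defining markers of the labelled cell type were thus at or near 0, and the libraries are named below by their glucose level only. The part of the rising fibroblast genes in the changes below was not tested.

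In high glucose, 26 of the 61 tested guidance genes were higher and 14 were lower, and 21 did not pass the test (edgeR quasi-likelihood test, Benjamini-Hochberg adjusted over all genes tested, threshold 0.05). The background over all 19015 genes was 31.4% called, with 16.9% higher and 14.5% lower, against 65.6% of the guidance genes. A mean log2 CPM of 4 or more was reached by 32 of the 61 tested members and by 8204 of the 19015 genes. At that level 39.1% of all genes were called, against 26 of the 32 members (81.2%). The part of abundance in the share called was not tested. The median log2 fold change (high minus normal glucose) of the tested members was 0.13, beside 0.0062 over all genes, and 35 of the 61 lay above 0. No value of 1 group lay within the range of the other for 47 of the 61 members, against 46.4% of all genes. Counts and medians of this kind describe the families and are not a test of them. In bulk RNA, fewer cells of a type and less RNA per cell cannot be told apart.

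The direction of calls depended in part on scaling. With library size alone, 20 members were higher and 17 lower (45.9% of calls lower, against 35.0%), while over all genes 1819 were higher and 4884 lower (3212 and 2757 with TMM) and the median moved from 0.0062 to -0.11 on the log2 scale. Removing the trend on GC content and length moved that median to 0.10, with 5705 of all genes higher and 2165 lower. It gave 26 members higher, 25 of them shared with the TMM fit (Epha5 was lost and Efna4 gained), and 14 lower.

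**Figure D1:**
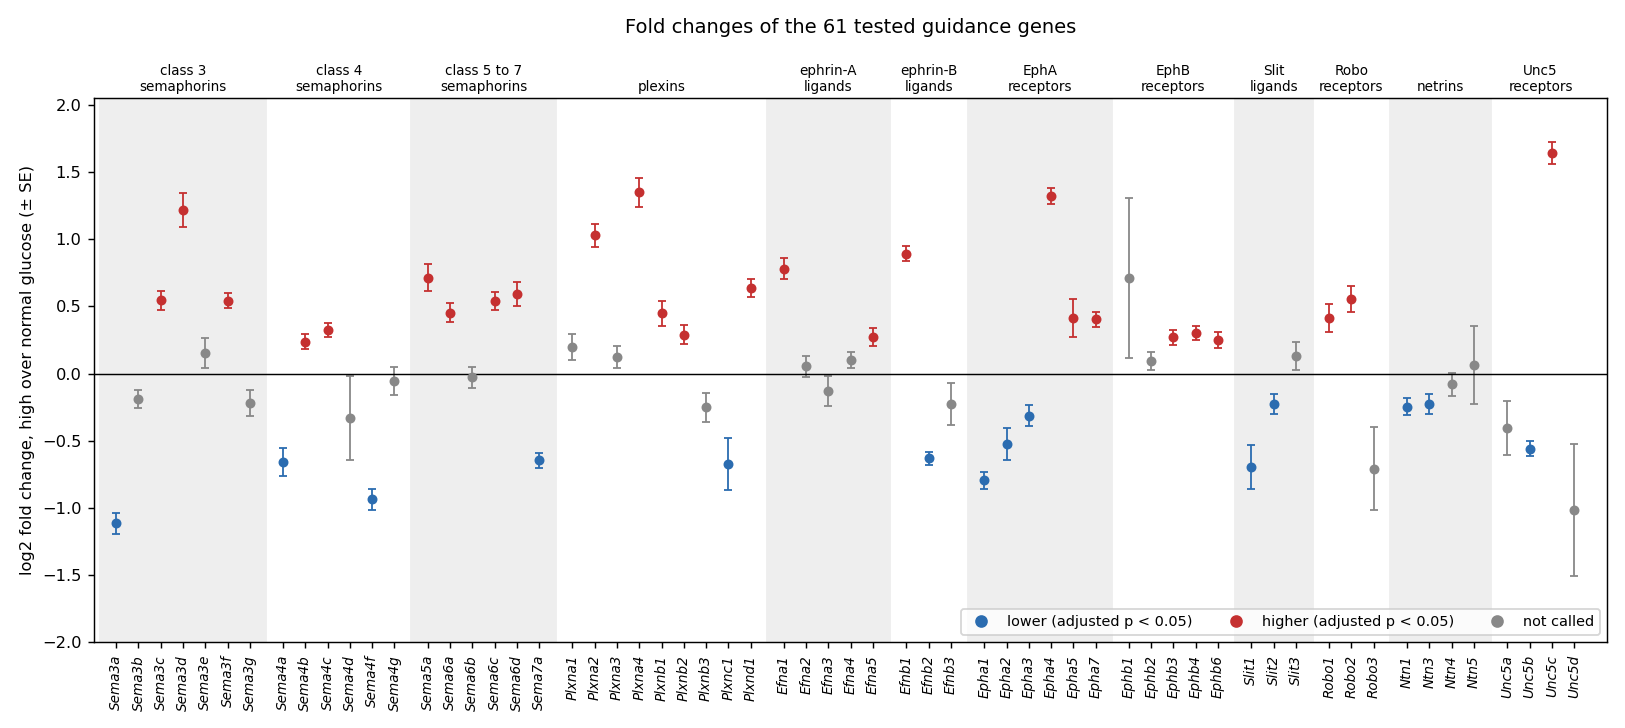
Log2 fold change (high over normal glucose, y axis) of each of the 61 tested guidance genes (x axis), grouped by family, with bars of 1 standard error from the edgeR fit. Blue points are genes called lower, red points genes called higher and grey points genes not called. Unc5c, Plxna4 and Epha4 stand highest, and Sema3a is the lowest of the called genes.

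By role, of the 27 receptors tested 14 were higher and 5 lower, with a median log2 fold change of 0.27. Of the 34 ligands tested 12 were higher and 9 lower, with a median of 0.014. The difference between the classes was not tested. The changes of at least 0.5 on the log2 scale numbered 24 members, 14 higher and 10 lower, where 13.1% of all genes were called at that size. The groups of all 24 were without overlap, so separation described for single genes below adds no support to their calls. Class 3, class 4 and class 5 to 7 semaphorins, plexins, ephrin-B ligands, EphA and Unc5 receptors each held called genes in both directions. Examples are Sema3a and Sema3d, Efnb2 and Efnb1, Epha1 and Epha4, and Unc5b and Unc5c.

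The promoters of these 8 genes are shown because each pair shares a family and differed in direction. Each is the 250 bases before the RefSeq transcript start on GRCm38.p6, written from 5′ to 3′ on the strand of the gene. Capitals mark matches on either strand to the letters searched. The first of each pair was lower in high glucose and the second higher.
Sema3a, chr5:13396534-13396783, plus strand: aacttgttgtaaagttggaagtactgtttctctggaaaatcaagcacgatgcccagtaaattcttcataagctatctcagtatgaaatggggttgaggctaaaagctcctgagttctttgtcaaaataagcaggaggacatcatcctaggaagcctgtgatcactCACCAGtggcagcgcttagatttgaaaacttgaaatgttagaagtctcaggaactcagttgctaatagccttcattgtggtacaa
Sema3d, chr5:12382916-12383165, plus strand: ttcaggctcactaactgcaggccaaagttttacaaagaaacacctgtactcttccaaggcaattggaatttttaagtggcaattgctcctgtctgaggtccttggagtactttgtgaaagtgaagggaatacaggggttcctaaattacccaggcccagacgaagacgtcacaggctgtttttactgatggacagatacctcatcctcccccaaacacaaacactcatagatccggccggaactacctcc
Efnb2, chr8:8661243-8661492, minus strand: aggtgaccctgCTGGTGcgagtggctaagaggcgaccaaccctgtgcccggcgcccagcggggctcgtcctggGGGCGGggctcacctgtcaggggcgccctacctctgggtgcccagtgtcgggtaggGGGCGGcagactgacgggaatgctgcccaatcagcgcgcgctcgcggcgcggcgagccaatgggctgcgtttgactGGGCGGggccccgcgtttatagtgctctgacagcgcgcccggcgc
Efnb1, chrX:99135811-99136060, plus strand: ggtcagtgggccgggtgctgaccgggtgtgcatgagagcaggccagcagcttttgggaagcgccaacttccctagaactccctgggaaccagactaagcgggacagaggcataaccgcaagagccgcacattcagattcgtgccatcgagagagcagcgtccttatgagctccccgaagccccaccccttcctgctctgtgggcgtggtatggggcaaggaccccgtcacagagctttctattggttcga
Unc5b, chr10:60831582-60831831, minus strand: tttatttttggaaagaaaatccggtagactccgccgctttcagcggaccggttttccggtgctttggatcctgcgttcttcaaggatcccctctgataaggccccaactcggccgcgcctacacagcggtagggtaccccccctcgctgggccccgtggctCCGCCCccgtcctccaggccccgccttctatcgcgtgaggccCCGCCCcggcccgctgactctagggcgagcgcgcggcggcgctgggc
Unc5c, chr3:141465314-141465563, plus strand: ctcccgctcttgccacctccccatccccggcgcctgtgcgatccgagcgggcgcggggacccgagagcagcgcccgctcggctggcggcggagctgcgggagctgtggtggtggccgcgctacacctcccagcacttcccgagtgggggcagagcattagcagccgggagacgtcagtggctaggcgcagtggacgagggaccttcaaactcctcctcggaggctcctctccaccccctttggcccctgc
Epha1, chr6:42373269-42373518, minus strand: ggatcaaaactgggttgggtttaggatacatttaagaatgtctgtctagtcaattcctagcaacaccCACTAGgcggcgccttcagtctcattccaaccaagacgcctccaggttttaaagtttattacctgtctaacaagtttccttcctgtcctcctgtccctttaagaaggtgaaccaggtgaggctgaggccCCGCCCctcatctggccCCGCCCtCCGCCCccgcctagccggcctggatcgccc
Epha4, chr1:77515089-77515338, minus strand: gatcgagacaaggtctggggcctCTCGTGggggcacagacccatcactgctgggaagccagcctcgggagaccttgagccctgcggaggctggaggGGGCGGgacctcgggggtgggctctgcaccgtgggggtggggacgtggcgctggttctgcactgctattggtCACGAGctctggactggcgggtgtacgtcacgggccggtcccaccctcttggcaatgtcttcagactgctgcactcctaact
The starts of Sema3d and Efnb1 could not be matched to the transcript models that gave the gene positions, and the RefSeq starts of Sema3a and Unc5c lie inside the longer gene spans of those models, as do their windows.

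The matched letters differed within each pair, and 8 windows chosen by the values of their genes are too few to relate letters to direction. The Efnb2 window held 3 GC boxes (GGGCGG) and 1 N-box (CACNAG), where that of Efnb1 held no match. The Unc5b window held 2 GC boxes and that of Unc5c none, although Unc5c had 71.2% G and C. Epha1, which was lower, had 3 GC boxes and 1 N-box, and Epha4, which was higher, had 1 GC box and 2 N-boxes. Sema3a had 1 N-box in a window with 40.8% G and C, and Sema3d had no match. Across all members with an entry (57 of 66, 73 windows), the median G and C content was 64.4%, against 52.4% over all windows of that length, with a median of 15 CpG sites against 6. GC boxes stood in 69.9% of member windows and 32.7% of all windows. N-boxes stood in 45.2% against 36.7%, E-boxes (CACGTG) in 5.48% against 6.02%, AP-1 motifs (TGANTCA) in 4.11% against 6.75%, and forkhead motifs (TGTTTAC) in 0% against 3.17%. The carbohydrate response element pattern, CACGTG repeated after 5 bases, stood in no window, members included. The E-box is part of that pattern. By direction over the members, GC boxes stood in 11 of 15 windows of genes called lower and 23 of 32 of genes called higher. They stood in 14 of 21 windows of genes not called. For N-boxes these counts were 10 of 15, 12 of 32 and 9 of 21. The splits by direction were not tested. A match is a description of letters, not a binding site.

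Among the secreted class 3 semaphorins, 3 were higher, 1 was lower and 3 did not pass the test. Sema3a, a repellent cue that acts through neuropilin-1 and A-type plexins, had 37.9, 47.3 and 42.7 CPM in normal glucose and 19.2, 20.7 and 19.2 CPM in high glucose. The normal glucose values were all far above the high glucose values, with no overlap, and the log2 fold change was -1.11 (SE 0.0799, adjusted P = 3.8e-06). Sema3d, a paralogue with roles in cardiac and vascular development, had 1.18, 1.47 and 1.48 CPM in normal glucose and 3.27, 3.46 and 2.90 CPM in high glucose, a rise of 1.22 (SE 0.125, adjusted P = 4.5e-05) with every high glucose library above every normal one. Sema3c, a cue for the outflow tract that binds both neuropilins, had 51.0, 62.3 and 55.4 CPM in normal glucose and 80.036, 85.3 and 81.1 CPM in high glucose. It rose by 0.55 on the log2 scale (SE 0.0724, adjusted P = 2.7e-04), again without overlap. Sema3f, whose main receptor is neuropilin-2, had 21.1, 22.7 and 23.4 CPM in normal glucose and 32.4, 32.6 and 32.7 CPM in high glucose and rose by 0.54 (SE 0.0549, adjusted P = 4.1e-05). The 3 high glucose values of Sema3f were nearly equal and lay above the normal range.

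Sema3g, a class 3 member known from arterial ECs, had 4.20, 3.74 and 3.54 CPM in normal glucose and 3.39, 3.28 and 3.18 CPM in high glucose. Its groups did not overlap, but the difference did not pass the test (log2 fold change -0.22, SE 0.0976, adjusted P = 0.113). Sema3b, which was more abundant, also lay lower in high glucose without passing (log2 fold change -0.19, SE 0.0674, adjusted P = 0.0591). It was called lower in 7 of 19 alternative settings (adjusted P = 0.00531 to 0.0472), among them RLE, upper quartile and library size scaling and DESeq2. Sema3e, the ligand that binds plexin D1 without a neuropilin, had a log2 fold change of 0.15 (SE 0.110, adjusted P = 0.330).

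The membrane-bound semaphorins were divided by gene rather than by class. In class 4, Sema4f had 6.86, 6.92 and 6.95 CPM in normal glucose and 3.45, 3.71 and 3.67 CPM in high glucose, with tight replicates and a fall of nearly 1 on the log2 scale (-0.94, SE 0.0799, adjusted P = 1.3e-05). Sema4a, known from immune cells and retina, had 2.80, 2.61 and 3.06 CPM in normal glucose and 1.85, 1.81 and 1.71 CPM in high glucose, lower in each high glucose library (-0.66, SE 0.106, adjusted P = 9.9e-04). Sema4c and Sema4b, both reported ligands of B-type plexins, were higher by 0.32 (adjusted P = 0.00109) and 0.24 (adjusted P = 0.00687). Sema4g, the other abundant class 4 gene, had a log2 fold change of -0.055 (SE 0.101, adjusted P = 0.722), and Sema4d, the ligand of plexin B1, one of -0.33 (SE 0.313, adjusted P = 0.462).

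In classes 5 to 7, 4 of 6 tested genes were higher and 1 was lower. Sema5a, which carries thrombospondin repeats, had 85.1, 118 and 110.0 CPM in normal glucose and 175, 170.0 and 169 CPM in high glucose. All 3 high glucose values lay above the normal ones, of which replicate 1 was the lowest, and the rise was 0.71 (SE 0.101, adjusted P = 4.2e-04). Sema6d, a transmembrane ligand of plexin A1, had 59.5, 79.4 and 70.4 CPM in normal glucose and 105, 104 and 106 CPM in high glucose. Its high glucose libraries lay close together, above a wider normal range (log2 fold change 0.59, SE 0.0886, adjusted P = 6.2e-04). Sema6c had 16.3, 14.8 and 14.4 CPM in normal glucose and 23.3, 21.1 and 21.5 CPM in high glucose and rose by 0.54 (SE 0.0678, adjusted P = 1.9e-04), and Sema6a, a ligand of plexins A2 and A4, rose by 0.45 (adjusted P = 6.5e-04). Sema7a, a lipid-anchored semaphorin that binds plexin C1 and integrins, was the exception, with 22.5, 23.2 and 24.3 CPM in normal glucose and 15.5, 14.8 and 14.4 CPM in high glucose. Its groups were well apart and it fell (-0.65, SE 0.0582, adjusted P = 1.8e-05).

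Plexins, the semaphorin receptors, were higher in 5 of 9 cases and lower in 1. Plxna4 had 4.24, 5.63 and 5.33 CPM in normal glucose and 13.9, 12.8 and 12.1 CPM in high glucose (1.35, SE 0.108, adjusted P = 8.2e-06). Plxna2 had 17.6, 22.7 and 22.4 CPM in normal glucose and 43.3, 42.2 and 42.4 CPM in high glucose and rose by 1.03 (SE 0.0874, adjusted P = 1.2e-05). Normal glucose replicate 1 was the lowest library for these plexins, and neither gene's groups overlapped. Plxnd1, the plexin best known from sprouting vessels, had 92.2, 105 and 109 CPM in normal glucose and 163, 153 and 159.9 CPM in high glucose, with a gap between the groups wider than the range of either (0.64, SE 0.0670, adjusted P = 5.4e-05). Plxnb1 and Plxnb2 were higher by 0.45 (adjusted P = 0.00459) and 0.29 (adjusted P = 0.0115). Plxnc1, the receptor of Sema7a, was the plexin that fell, with 0.855, 1.15 and 0.922 CPM in normal glucose and 0.691, 0.679 and 0.467 CPM in high glucose and a log2 fold change of -0.67 (SE 0.192, adjusted P = 0.0227). Its counts were low and its groups were close to each other, and the call was lost without normal glucose replicate 2 (adjusted P = 0.0706) or high glucose replicate 3 (adjusted P = 0.0838). Plxna1, the most abundant A-type plexin, had higher values in high glucose without passing the test (log2 fold change 0.20, SE 0.0980, adjusted P = 0.154), and Plxna3 had 0.13 (SE 0.0827, adjusted P = 0.281).

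**Figure D2:**
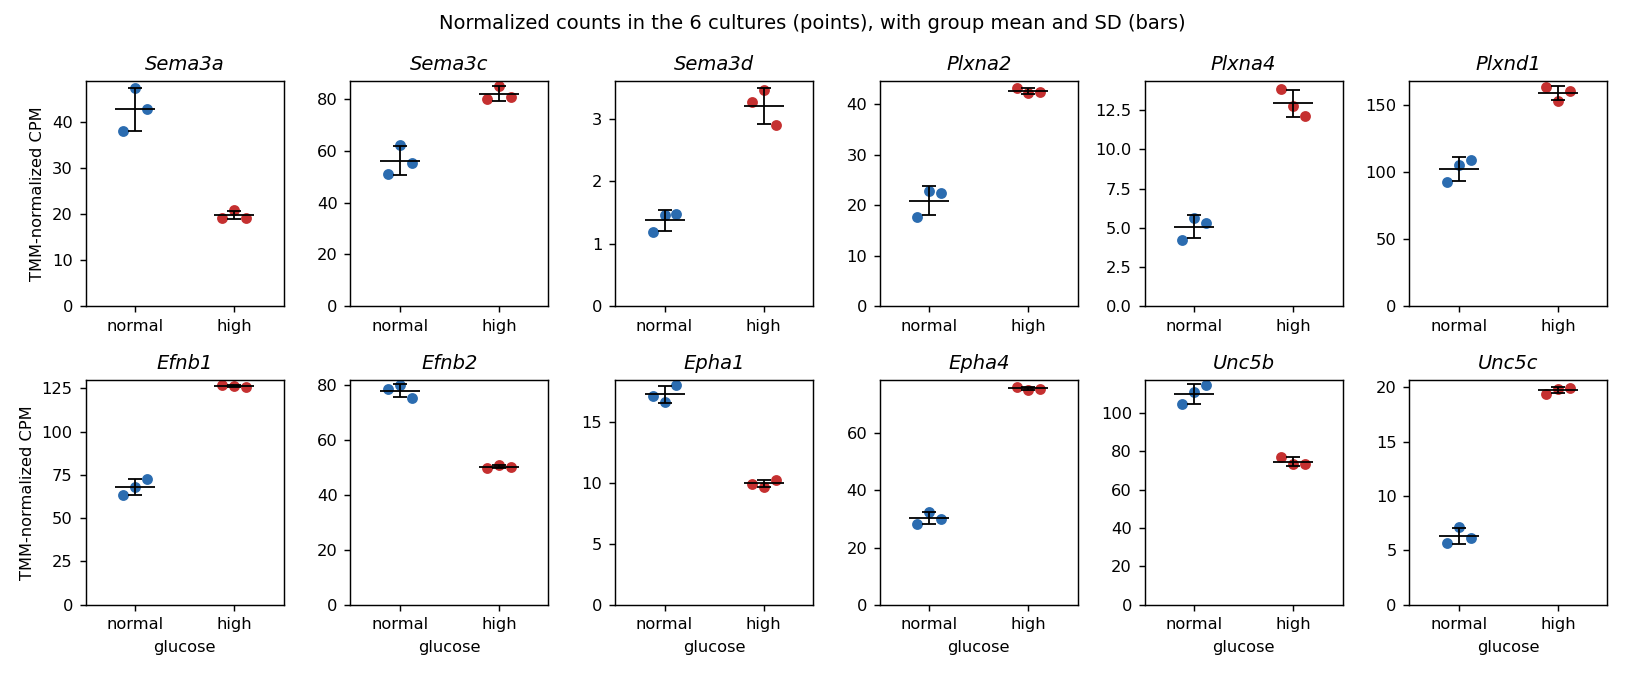
TMM-normalized CPM (y axes, linear and starting at 0, with a scale of its own for each gene) of 12 called guidance genes in each library, normal glucose in blue and high glucose in red, with bars for the group mean and SD (n = 3). In each panel the groups are apart: Sema3a, Efnb2, Epha1 and Unc5b lie lower in high glucose and the other 8 genes higher. The 12 genes were taken from the 24 called members with changes of at least 0.5, none with overlapping groups, so the separation adds no support to the calls.

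Among ephrins, the B class held 1 gene that fell and 1 that rose. Efnb2, the arterial ligand of EphB4, had 78.7, 80.042 and 75.3 CPM in normal glucose and 49.8, 50.9 and 50.3 CPM in high glucose. Every high glucose library lay below every normal one (-0.63, SE 0.0496, adjusted P = 7.1e-06). Efnb1, an X-linked paralogue that shares EphB receptors with ephrin-B2, had 63.4, 68.1 and 72.6 CPM in normal glucose and 127, 127 and 126 CPM in high glucose, and rose by 0.89 (SE 0.0586, adjusted P = 2.0e-06). Within each library Efnb2 counts exceeded Efnb1 counts in normal glucose, with Efnb1 to Efnb2 ratios of 0.806, 0.851 and 0.965, and the order was the opposite in high glucose, with ratios of 2.54, 2.49 and 2.50. This ratio rose 2.88-fold and does not depend on library scaling. It is one of raw counts, and Efnb2 has the longer exon sequence. Per length Efnb1 was ahead in every library, with 60.8% to 65.1% of ephrin-B transcripts in normal glucose and 82.6% to 82.8% in high glucose. Ephrin-A1, encoded by Efna1 and best known as the ligand of EphA2, had 5.94, 5.41 and 5.58 CPM in normal glucose and 9.35, 10.2 and 9.53 CPM in high glucose and rose by 0.78 (SE 0.0782, adjusted P = 3.8e-05), with no overlap. Efna5 was higher by 0.27 (adjusted P = 0.00991). Efna2, Efna3, Efna4 and Efnb3 did not pass the test.

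Of the Eph receptors, 6 of the 11 tested were higher and 3 lower. Epha4, unusual in binding both A and B ephrins, had 28.4, 32.4 and 29.9 CPM in normal glucose and 76.2, 75.1 and 75.4 CPM in high glucose. The high glucose libraries lay close together at 2.50 times the normal level (1.32, SE 0.0589, adjusted P = 1.5e-07). Epha1 moved the other way, with 17.1, 16.6 and 18.0 CPM in normal glucose and 9.90, 9.67 and 10.3 CPM in high glucose and a log2 fold change of -0.79 (SE 0.0635, adjusted P = 8.0e-06). Its exons share 236 bases with Zyx on the opposite strand, and strand use in counting is not stated, so reads of the 2 genes cannot be told apart there. The length-scaled share of EphA receptor transcripts that was Epha4 went from 28.9 ± 0.96% (SD, n = 3) in normal glucose to 55.3 ± 0.36% (SD, n = 3) in high glucose. That of Epha1 went from 33.8 ± 2.0% to 14.9 ± 0.47%. Epha2, the ephrin-A1 receptor, had 3.23, 3.48 and 3.65 CPM in normal glucose and 2.65, 2.02 and 2.50 CPM in high glucose, lower in high glucose without overlap (-0.53, SE 0.119, adjusted P = 0.00717). The further EphA genes that passed were Epha3 (-0.31, adjusted P = 0.0123), Epha7 (0.40, adjusted P = 4.4e-04) and Epha5 (0.42, adjusted P = 0.0475), the last lost in 13 of 19 alternative settings.

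Of the 5 EphB receptors 3 were higher and none was lower. Ephb4, the venous receptor of ephrin-B2, had 99.5, 99.992 and 107 CPM in normal glucose and 128, 127 and 124 CPM in high glucose, a rise of 0.30 (SE 0.0517, adjusted P = 0.00134) with separate groups. Ephb3 and the kinase-inactive Ephb6 were higher by 0.27 (adjusted P = 0.00371) and 0.25 (adjusted P = 0.0123). Ephb2 had a log2 fold change of 0.093 (SE 0.0665, adjusted P = 0.319), and its sign was turned by library size scaling.

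**Figure D3:**
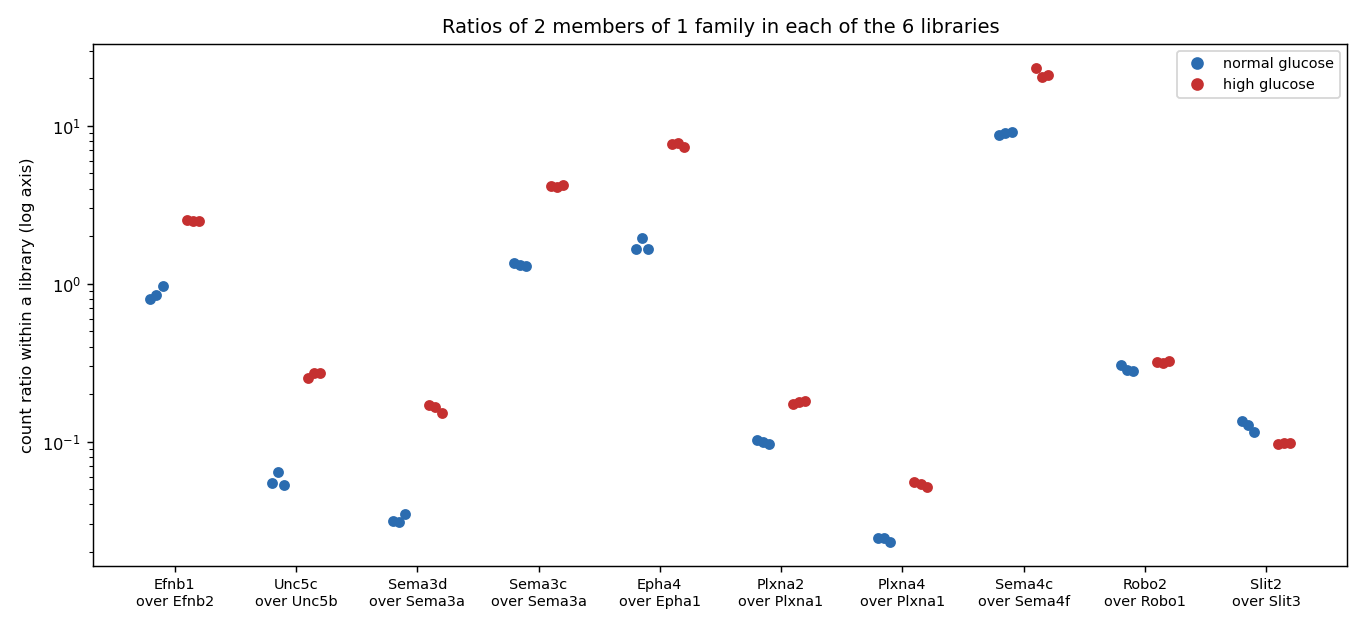
Ratio of the counts of 2 genes of 1 family within each library (y axis, log scale) for 10 pairs chosen after their values were seen, with normal glucose libraries in blue and high glucose libraries in red. The Efnb1 to Efnb2 ratio lies below 1 in all normal glucose libraries and between 2.49 and 2.54 in the high glucose libraries.

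Netrin receptors of the Unc5 family held the largest change of all members. Unc5c, a repulsive netrin receptor of neurons, had 5.72, 7.11 and 6.12 CPM in normal glucose and 19.4, 19.8 and 19.9 CPM in high glucose. Each high glucose library was far above each normal one, a rise of 3.12-fold (1.64, SE 0.0837, adjusted P = 3.6e-07). Its exons share 118 bases with Gm15688 on the opposite strand. Unc5b, the family member known from EC tip cells, had 105, 111 and 115 CPM in normal glucose and 77.2, 73.2 and 73.6 CPM in high glucose. The gap between the groups was wider than the range of either, and Unc5b fell (-0.56, SE 0.0547, adjusted P = 3.2e-05). Unc5b stayed the main family transcript per length, with 97.2% of the family in normal glucose and 91.2% in high glucose, while Unc5c went from 1.82 ± 0.18% to 7.87 ± 0.30% (SD, n = 3 each). Unc5a and Unc5d did not pass the test.

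Of the 4 netrins 2 were lower and none was higher. Ntn1, the founding secreted netrin, was lower by a small margin (143 ± 11.3 CPM in normal and 120.2 ± 3.41 CPM in high glucose, SD, n = 3 each, log2 fold change -0.25, adjusted P = 0.0149). Ntn3 was lower as well (-0.23, adjusted P = 0.0344), but its exons share 89 bases with Tbc1d24 on its own strand and 139 bases with BC028777 on the other. The laminin-related Ntn4 and the low Ntn5 did not pass.

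Of the 3 Slits 2 were lower, and of the 3 Robos tested 2 were higher. Slit3, a secreted Robo ligand, was the most abundant member per length in both groups (1151 ± 189 CPM in normal and 1260.3 ± 25.8 CPM in high glucose, SD, n = 3 each), and its difference did not pass the test (log2 fold change 0.13, SE 0.101, adjusted P = 0.359). Its normal glucose values were 935, 1233 and 1286 CPM, so that replicate 1 stood apart, and without that library the sign turned. Slit2 was lower by a margin close to the threshold (-0.22, adjusted P = 0.0419, lost in 7 alternative settings). The log2 fold change of Slit2 ranged from -0.41 to -0.17 over the 19 alternatives. Slit1, at a far lower level, had 1.17, 1.04 and 1.27 CPM in normal glucose and 0.571, 0.765 and 0.816 CPM in high glucose, lower without overlap (-0.70, SE 0.167, adjusted P = 0.00984). Robo2 had 6.48, 8.45 and 7.70 CPM in normal glucose and 11.1, 10.7 and 11.5 CPM in high glucose and rose by 0.56 (SE 0.0973, adjusted P = 0.00163), and Robo1, the receptor most widely expressed outside the nervous system, rose by 0.41 (adjusted P = 0.0124). The groups of Robo2 did not overlap. Robo4, the endothelial Robo, had no count in 5 libraries and 4 counts in high glucose replicate 2, where 3 counts equal a floor of 0.0212 to 0.0258 CPM over the libraries. The other members that the filter removed were Epha6 and Epha10, with no count, and Epha8 and Sema5b, with at most 3 counts in any library.

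**Figure D4:**
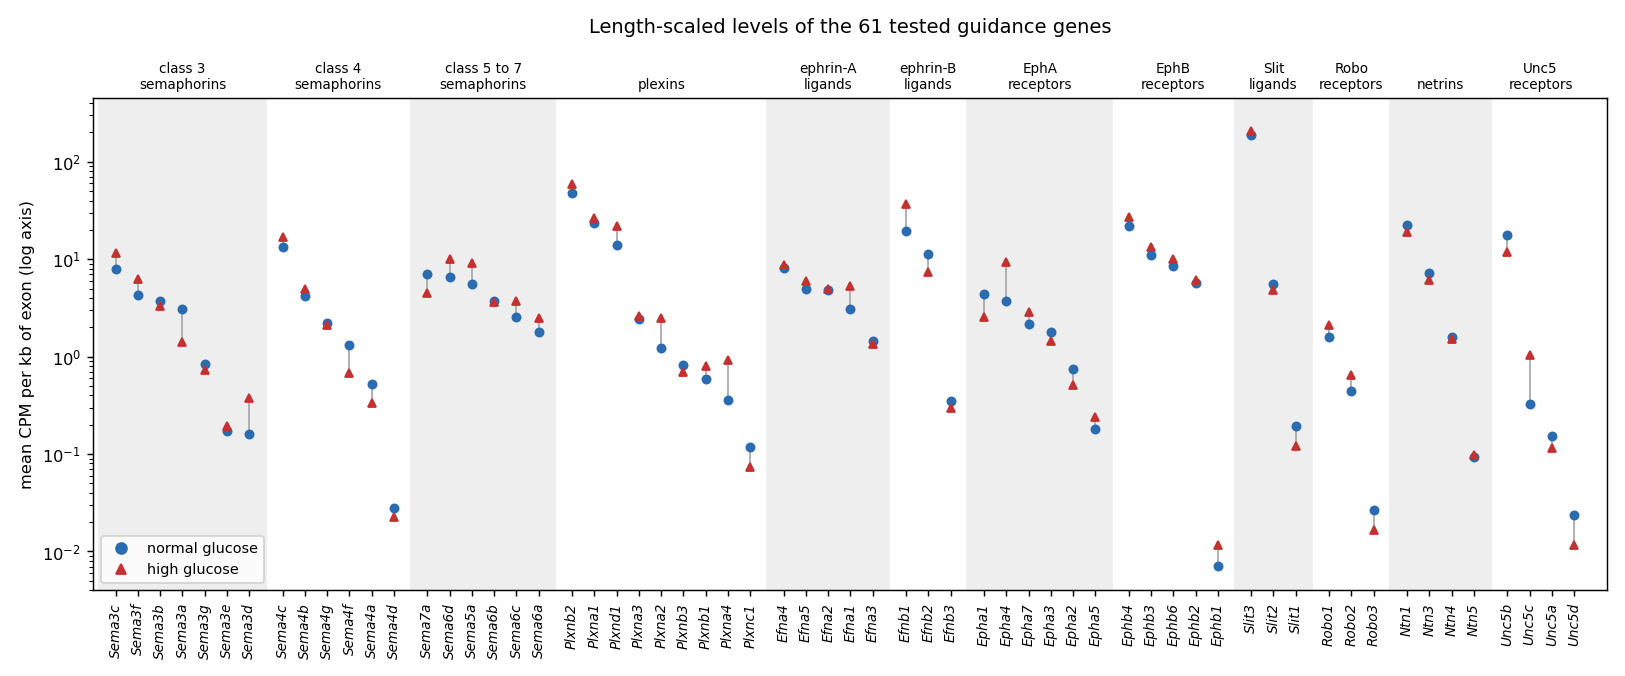
Mean CPM per kilobase of exon sequence (y axis, log scale) of each of the 61 tested guidance genes (x axis), grouped by family and ordered by level in normal glucose, which blue circles show, with red triangles for high glucose. Slit3 stands far above all others, and a grey line joins both values of each gene, so that Efnb1 is seen to lie higher and Efnb2 lower in high glucose.

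Per kilobase of exon sequence, Slit3 (190 CPM per kb in normal glucose, 208 in high glucose) and Plxnb2 (48.0 and 58.6 CPM per kb) were the most abundant members in both groups. Efnb1 went from 19.7 to 36.6 CPM per kb, from the sixth to the third place, and Efnb2 from 11.4 to 7.34 CPM per kb, from the tenth to the 17th. Plxna1 (23.3 CPM per kb), Ntn1 (22.7) and Ephb4 (22.04) in normal glucose were neighbours in this order whose libraries overlapped. Among class 3 semaphorins Sema3c took 39.0 ± 2.1% of the length-scaled sum in normal glucose and 48.4 ± 0.64% in high glucose, while Sema3a went from 15.2 ± 0.90% to 5.98 ± 0.15% (SD, n = 3 each).

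The 15 tested members with a mean log2 CPM under 4 that did not pass had log2 fold changes from -1.01 (Unc5d) to 0.71 (Ephb1). A missed threshold does not show that they were equal between the groups. Exons of Ephb4, Plxna4, Plxnb1, Plxnc1, Sema4a and Sema4c, among the called genes, also share bases with another gene.

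Several of the smaller calls were lost when 1 library was left out, always by significance and not by direction. Over all genes calls also fell, to 2010 higher and 2097 lower without high glucose replicate 1. They were 1988 and 2048 without high glucose replicate 3, against 3212 and 2757 with all libraries. Epha5 was no longer called with any library left out except high glucose replicate 1 (adjusted P = 0.0529 to 0.182), and its log2 fold change was 0.21 without high glucose replicate 2. Slit2 was lost with any left out except normal glucose replicate 1 (adjusted P = 0.0859 to 0.119), and Ntn3 without normal glucose replicate 2 or 3 or high glucose replicate 2 or 3 (adjusted P = 0.0744 to 0.122). Ntn1 was lost without normal glucose replicate 3 (adjusted P = 0.0605) or high glucose replicate 2 or 3 (adjusted P = 0.0506 and 0.0528). Plxnb2 (adjusted P = 0.0707), Ephb6 (0.0776), Robo1 (0.0506) and Sema4b (0.0640) were lost without high glucose replicate 1. Their log2 fold changes were then 0.25, 0.22, 0.39 and 0.19. Ephb6 was also lost without high glucose replicate 2 (0.0529), Robo1 and Sema4b without high glucose replicate 3 (0.0544 and 0.0637), and Efna5 without either (0.0510 and 0.0628). In the other direction, Unc5d passed without normal glucose replicate 3 (log2 fold change -1.44, adjusted P = 0.0132) and Sema3b without normal glucose replicate 2 (adjusted P = 0.00954), as did Plxnb3 without the latter library and Unc5a without normal glucose replicate 1.

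Genes that work with these ligands and receptors were taken as a separate list of co-receptors and effectors. That list, too, was chosen with earlier results of these data known. Of 77 listed, 76 were matched and 73 tested, with 23 higher, 11 lower and 39 not passing (46.6% called, against 31.4% of all genes and 39.1% of those with a mean log2 CPM of 4 or more), and a median log2 fold change of 0.085. The split varied with processing: 14 were higher and 20 lower with library size scaling, 20 and 16 with upper quartile normalization, and 31 and 8 with the GC and length trend removed. Over all genes these splits were 1819 and 4884, 2622 and 3407, and 5705 and 2165. Without high glucose replicate 1 there were 14 higher and 6 lower, and without high glucose replicate 3 there were 14 and 7. All genes called fell in these fits too, to 2010 higher and 2097 lower and to 1988 and 2048, from 3212 and 2757. Neuropilin-1, the co-receptor for Sema3a, had 75.5, 88.3 and 89.3 CPM in normal glucose and 127, 129 and 127 CPM in high glucose and rose by 0.60 (SE 0.0673, adjusted P = 8.3e-05), and Nrp2, that for Sema3f, rose by 0.28 (adjusted P = 0.00352). Both neuropilins had separate groups. Neogenin (Neo1), a receptor for netrins and repulsive guidance molecules, had 107, 138 and 132 CPM in normal glucose and 236, 239 and 242 CPM in high glucose (0.93, SE 0.0854, adjusted P = 2.1e-05). Dcc, the classical netrin receptor, had at most 8 counts in any library and was not tested. The largest rise among called genes was that of Chl1, an adhesion molecule of the L1 family that partners neuropilin-1, with 101, 125 and 109 CPM in normal glucose and 408, 442 and 420.2 CPM in high glucose (1.92, SE 0.0782, adjusted P = 8.5e-08). Rnd1, a small GTPase that binds plexins (1.04, adjusted P = 3.3e-05), Draxin, a secreted netrin antagonist (0.77, adjusted P = 1.7e-05), and Dpysl5 at low counts (1.64, adjusted P = 0.00962, but 0.0547 without high glucose replicate 3) also rose. The largest falls among called genes were those of Ngef, an EphA-coupled exchange factor (-0.99, adjusted P = 0.00256), L1cam, a partner of neuropilin-1 (-0.62, adjusted P = 3.9e-04), the semaphorin signalling mediators Crmp1 (-0.49, adjusted P = 0.00129) and Dpysl2 (-0.48, adjusted P = 0.0393), and Rasa1, a Ras GTPase-activating protein (-0.44, adjusted P = 4.6e-04). Nrp1, Ngef, L1cam and Rasa1 share exon bases with another gene, for Nrp1 80 bases with Mir1903 on its own strand. Dpysl2 was lost in 7 of 19 alternative settings. Among these were DESeq2 (adjusted P = 0.101), robust fitting (adjusted P = 0.128) and each high glucose library left out (adjusted P = 0.0643 to 0.112). The size of the Dpysl2 change rested on normal glucose replicate 1, without which it was -0.24.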

How the data were processed

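Guidance genes and the partner list were chosen with earlier results of these data known. Per the submitters' notes and the study's methods, reads were trimmed with Trimmomatic, aligned to GRCm38 (mm10) with HISAT2 and summarised with StringTie. Versions, annotation release and strand setting are not given in the sources used here. The authors deposited these values as raw counts per gene identifier for all 6 libraries. Entries of 2 counts (9280) approached entries of 1 count (10842) in number. Whether each mate of a read pair was counted was not tested, and floors cover counting error only.

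The whole table was fitted with edgeR 4.0.16 (R 4.3.3): filterByExpr (minimum count 10, minimum total 15), TMM normalization and the quasi-likelihood test of high against normal glucose, with Benjamini-Hochberg adjustment over 19015 genes and a threshold of 0.05. Normalized CPM used TMM factors of 0.954 to 1.05. Standard errors came from the test statistic. The biological coefficient of variation was 8.44%, and replicates differed beyond sampling noise (chi-square per degree of freedom at least 9.76). The fit was tested on simulated data. Gene positions, exon lengths and overlaps came from GENCODE M21, promoters and their letters from RefSeq on GRCm38.p6. Protein sequences were not used here. All called members are named, values in every library are given for called members with an absolute log2 fold change of at least 0.5 and for members known from endothelial biology, and uncalled members are named at a mean log2 CPM of at least 4. Some others are named after their values were seen. Alternatives were other normalizations (RLE, upper quartile, library size), filters, tests (likelihood ratio, robust fitting, DESeq2 1.42.0), halved counts, summed symbols, thresholds, a GC and length trend removed with mgcv 1.9.3, the replicate block, and each library left out.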

Additional observations from a re-analysis of the deposited data

How the results depend on the processing

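Under 19 alternatives for single genes, 30 of the 40 called guidance genes kept their direction and stayed past the threshold in each, among them 23 of the 24 with changes of at least 0.5 (Plxnc1 was the exception), and no called member reversed. Library size scaling lost Efna5, Epha5, Ephb6, Plxnb2, Robo1 and Sema4b. It gave 20 partners lower and 14 higher. At an adjusted p under 0.01, 9 members were lower and 22 higher, and 6 partners were lower and 15 higher. Over all genes 1671 were lower and 1946 higher. With a log2 fold change of at least 1 there was 1 member lower and 5 higher, and 0 partners lower and 3 higher. At that size 542 of all genes were lower and 395 higher. With 1 library left out, members lower ranged from 10 to 15 and higher from 22 to 25. Partners lower ranged from 6 to 15 and higher from 14 to 25, the lowest partner counts without high glucose replicates 1 and 3. All genes lower ranged from 2048 to 3065 and higher from 1988 to 3149, the lowest counts without those same libraries. Among uncalled genes, the log2 fold change of Ephb2 reversed to -0.022 with library size scaling, -0.011 with the GC and length trend removed and -0.01157 with that and the replicate block. With 1 library left out, the log2 fold change of Slit3 ranged from -0.017 (without normal glucose replicate 1) to 0.21, and the log2 fold change of Sema4g from -0.14 to 0.039 (without high glucose replicate 2). The causes were not tested.

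The labels number replicates 1 to 3 in both groups, but same-numbered libraries did not deviate together (correlations -0.065, 0.041 and 0.045), so they were not treated as pairs. With the replicate block, 12 members were lower and 26 higher, and 9 partners lower and 22 higher, beside 2418 and 2909 of all genes. The members lost were Ntn3 and Slit2. With the trend removed and the block, 14 members were lower and 26 higher, and 9 partners lower and 29 higher. Over all genes these were 1966 and 5136. Low counts limit Robo4, Sema5b and Epha8, whose differences were not detectable at this depth, and 3 libraries a group limit exact permutation tests to P = 0.1.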

Other observations

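Marker lists of further cell types were summed in the same way. Over all genes tested, 14.5% were lower and 16.9% higher. Of the 8 Schwann cell and neuron markers, 7 were tested, with 4 lower and none higher. Their sum lay between 37.1 and 38.8 CPM in normal glucose and 29.2 and 30.9 CPM in high glucose. Tubb3, not called, weighed most in it (means of 13.7 and 12.4 CPM). Of the 11 mural markers, 10 were tested, with 5 lower and 2 higher and sums between 1196 and 1282 CPM and 1082 and 1152 CPM. Pdgfrb, not called, weighed most in these sums (means of 546 CPM in normal and 578 CPM in high glucose). Macrophage markers summed to between 17.4 and 19.6 CPM in normal glucose and 26.8 and 27.9 CPM in high glucose, with 2 lower and 1 higher of 5 tested. Cd14 carried that rise of the sum (8.95 to 10.1 CPM in normal and 21.1 to 21.2 CPM in high glucose), whereas Csf1r (-0.73, adjusted P = 0.00102) and Cd68 (-0.46, adjusted P = 0.0463) were lower and Ptprc, Adgre1 and Itgam had at most 16 counts in any library. Keratinocyte markers summed to between 4.05 and 5.03 CPM and 4.61 and 5.04 CPM (1 higher of 3 tested). Krt10 and Trp63, neither of them called, carried that sum. Krt5 was higher at low counts, with 2 in each normal glucose library and 12 to 23 in high glucose (2.95, adjusted P = 0.00148). Krt14, not tested, had 0 to 2 counts in normal and 9 to 35 in high glucose. Lymphatic endothelial markers summed to between 6.37 and 7.497 CPM and 7.54 and 8.50 CPM (0 called of 2 tested by the edgeR quasi-likelihood test). Their part in the changes of the guidance genes was not tested.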
